A study of Mus musculus with 4 samples.

Results

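The 87 mouse genes described here encode enzymes that build the sugar chains of mucins and other glycoproteins, together with carbohydrate sulfotransferases. They were chosen by name alone, as the array rows with a single annotated gene whose symbol starts with Galnt, Gcnt, C1galt, B3galt, B3gnt, B4galt, Fut and a digit, St3gal, St6gal (the St6galnac genes included), St8sia or Chst. These were 91 rows and 87 of the 19938 genes measured. RNA came from gastric corpus cells of adult mice on a C57BL/6 background, cut from stomach sections by laser capture. The 4 groups were zymogenic cells of MIST1 knockout (MIST1-null) mice, zymogenic cells of wild-type mice, mucous neck cells of MIST1-null mice and mucous neck cells of wild-type mice. MIST1, encoded by Bhlha15, is a basic helix-loop-helix transcription factor of secretory cells. Each group was 1 Affymetrix Mouse Gene 1.0 ST array hybridised with RNA pooled over dissections and mice, drawn from 5 MIST1-null and 4 wild-type animals. The assignment of animals to pools was not given in the sources used here. With 1 array per group no difference has a replicate check, no test was run, and every count below describes these arrays only. Precision is limited by this number of arrays.

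Mucin-type O-glycosylation starts in the Golgi when a polypeptide GalNAc transferase (the Galnt family) adds N-acetylgalactosamine to serine or threonine. C1galt1, which needs its chaperone C1galt1c1, adds galactose to form core 1, and the Gcnt enzymes add a branching N-acetylglucosamine (GlcNAc) to make core 2, core 4 or the I branch. The B3gnt and B4galt enzymes extend these branches, and fucose, sialic acid or sulfate cap them. Mucous neck cells make the gland mucin Muc6, whose glycans end in a GlcNAc placed by A4gnt, while zymogenic cells (chief cells) store pepsinogens. In the study, zymogenic cells were recognised as corpus cells basal to the zone stained by the lectin GS-II, which binds terminal GlcNAc, so the choice of cells stood close to the glycans these enzymes build.

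Values are array intensities on a linear scale, and differences are on the log2 scale, written as MIST1-null minus wild-type or as zymogenic minus neck. A gene was called detectable in a comparison when the higher of its 2 intensities reached 43.68, the median of all single-gene rows, a cut on size rather than a measured background. The 4 array medians lay between 37.9 and 40.9. Bhlha15 read 22.0 in MIST1-null zymogenic and 150 in wild-type zymogenic cells, and 20.2 in MIST1-null neck and 59.7 in wild-type neck cells. Muc6 read 20.7 and 26.7 in MIST1-null and wild-type zymogenic cells, against 2980 and 2510 in MIST1-null and wild-type neck cells. The chief cell product Cblif (gastric intrinsic factor) read 5030 and 4880 in the zymogenic arrays, against 2120 and 2370 in the neck arrays. Muc6 and Cblif thus ran with the labels. Of the pepsinogen genes, Pgc read 8670 or more on all 4 arrays, and Pga5 ran against the labels, with 20.4 and 31.0 in MIST1-null and wild-type zymogenic cells, against 1880 and 1350 in neck cells. All arrays also carried markers of other cells. Over 8 parietal cell markers, the summed intensity was 8390 in MIST1-null zymogenic, 4700 in wild-type zymogenic, 10100 in MIST1-null neck and 9160 in wild-type neck cells. Over 6 endocrine markers the sums in the same order were 12800, 8740, 3700 and 5760, over 9 fibroblast and smooth muscle markers 1410, 1280, 359 and 511, and over 6 immune markers 386, 416, 168 and 315. Over 4 markers of surface mucous cells the sums in that order were 3460, 3350, 1940 and 2110.

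Of the 87 genes, 27 reached the detection level on all 4 arrays, 37 on some of them and 23 on none. The genes under it on every array included Galnt9, Galnt13, Galnt14, Galnt15 and Galnt16 among the initiating enzymes, Gcnt2 (the I branching enzyme), B3gnt5, B3galt1, B3galt2, B3galt5, B4galt4, Fut7, and the sulfotransferases Chst3, Chst7 and Chst9. Galntl5, St3gal4, St6galnac3, St6galnac4, St6galnac5, St8sia1, St8sia4 and St8sia5 completed this set. An undetected row does not show that a gene is silent.

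The genes at least 2-fold lower in zymogenic than in neck cells of both genotypes belonged to the families that start and branch O-glycans. In MIST1-null mice 12 of 57 detectable member genes, or 21.1%, were at least 2-fold lower in zymogenic than in neck cells, where 4.80% of all detectable genes were, and 7, or 12.3%, were higher, against 4.90% of all. In wild-type mice 9 of 56, or 16.1%, were at least 2-fold lower, against 6.78% of all detectable genes, and 5, or 8.93%, were higher, against 6.27%. Counted either way, 19 members passed 2-fold in MIST1-null mice, or 33.3% against 9.70% of all, and 14 in wild-type mice, or 25.0% against 13.1%. The median difference stayed near 0, at 0.13 over the members and 0.05 over all genes in MIST1-null mice and at 0.00 and 0.02 in wild-type mice. Galnt4, Galnt6, Galnt7, Galnt12, Galntl6, Gcnt1 and Gcnt3 were lower by 2-fold in both genotypes. They were 7 of 49 members detectable in both comparisons, or 14.3%, against 2.03% of all genes. At this cut they came from the Galnt and Gcnt families alone. Below the cut in 1 genotype each, C1galt1 (-1.42 in MIST1-null, -0.99 in wild-type mice) and Fut9 (-0.84 and -1.40) were also lower in both. C1galt1 joined the set with each array centred on its median. Galntl6 rests on 1 of 3 rows that disagreed. Of these, Gcnt1, Gcnt3, Galntl6 and Galnt6 passed the detection rule only through the neck arrays in both genotypes, and Galnt12 did in wild-type mice. They had to be lower in zymogenic cells, as did any gene of the background that passed in the same way. Among the genes 2-fold higher, all but St3gal6 in the MIST1-null pair passed only through the zymogenic array. In the wild-type pair St6gal2, St8sia2 and St8sia3 did, so all of these had to be higher. With low values raised to the detection level, 6 of the 49 members remained 2-fold lower in both genotypes, against 1.42% of all genes. In pooled material of this kind, fewer cells of a type and less RNA per cell cannot be told apart.

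**Figure D1:**
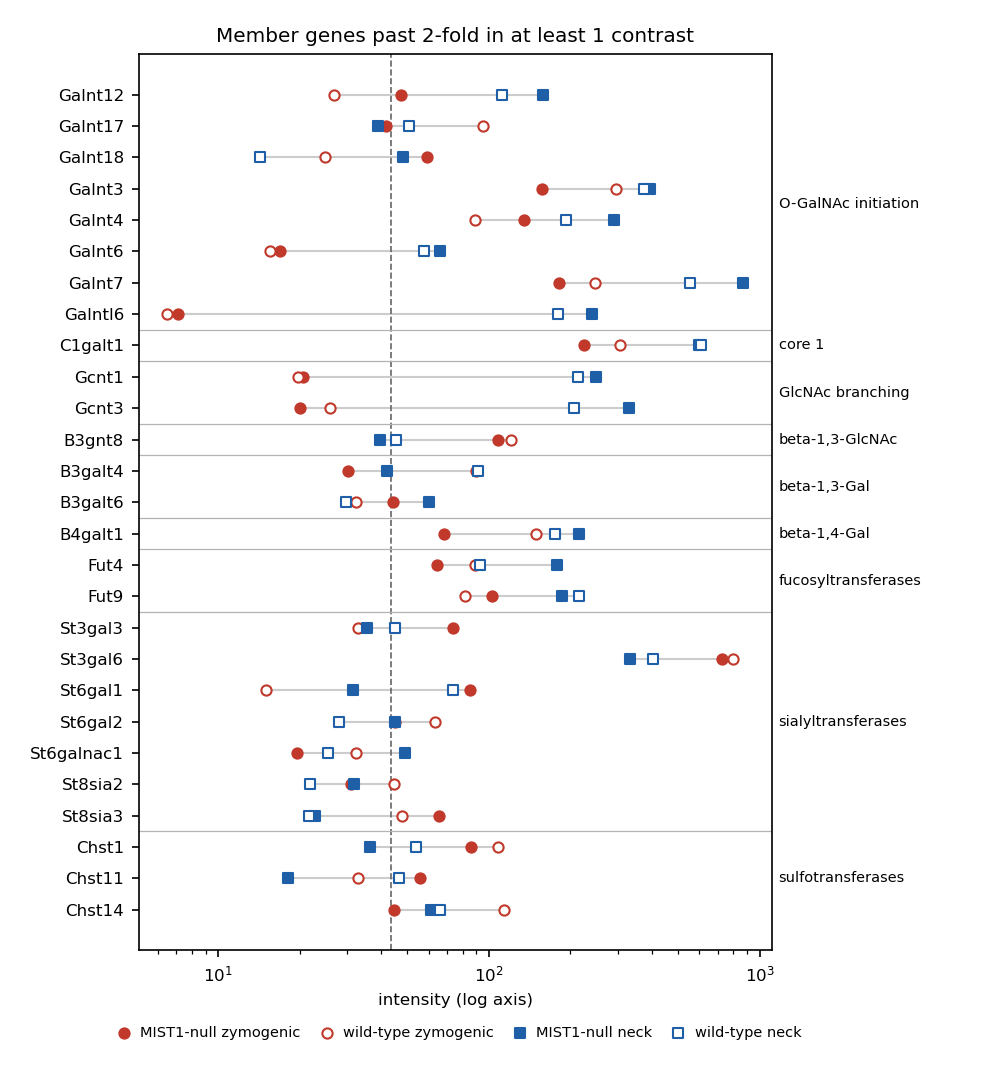
Intensity on each array (log axis) of the 27 member genes that were detectable and at least 2-fold different in 1 or more of the 4 comparisons, grouped by enzyme role; filled symbols are MIST1-null, open symbols wild-type, circles zymogenic and squares neck cells, and the dashed line is the detection level of 43.68. The neck squares of Gcnt1, Gcnt3 and Galntl6 lie between 180 and 329, apart from zymogenic circles between 6.50 and 26.0.

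MIST1 binds DNA at E-boxes, sites of the form CANNTG, and the promoter letters of 5 genes whose values carry the comparisons are shown. Gcnt1, Galnt7 and C1galt1 stood lower in zymogenic cells, B3gnt8 stood higher there, and B4galt1 stood lower in zymogenic cells without MIST1. Each sequence runs 5′ to 3′ on the gene's strand from 250 bases before to 50 bases after the RefSeq start, in build GRCm38.p6. Capitals mark CANNTG, which reads the same on both strands. The windows are chr19:17372795-17373094 (minus strand) for Gcnt1, the first of 3 listed starts, chr8:57653006-57653305 (minus) for Galnt7, chr6:7844974-7845273 (plus) for C1galt1, chr7:25627374-25627673 (plus) for B3gnt8 and chr4:40853935-40854234 (minus) for B4galt1.
Gcnt1: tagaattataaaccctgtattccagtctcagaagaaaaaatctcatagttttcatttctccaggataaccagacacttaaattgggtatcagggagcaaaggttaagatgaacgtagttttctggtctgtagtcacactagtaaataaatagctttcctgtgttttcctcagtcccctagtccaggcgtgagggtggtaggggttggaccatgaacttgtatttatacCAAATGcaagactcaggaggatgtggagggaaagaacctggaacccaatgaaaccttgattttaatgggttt
Galnt7: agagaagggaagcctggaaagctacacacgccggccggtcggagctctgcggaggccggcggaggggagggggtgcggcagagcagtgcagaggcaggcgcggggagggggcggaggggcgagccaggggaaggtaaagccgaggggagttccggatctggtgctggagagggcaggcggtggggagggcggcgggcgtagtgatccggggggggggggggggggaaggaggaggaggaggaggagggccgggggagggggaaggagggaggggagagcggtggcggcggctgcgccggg
C1galt1: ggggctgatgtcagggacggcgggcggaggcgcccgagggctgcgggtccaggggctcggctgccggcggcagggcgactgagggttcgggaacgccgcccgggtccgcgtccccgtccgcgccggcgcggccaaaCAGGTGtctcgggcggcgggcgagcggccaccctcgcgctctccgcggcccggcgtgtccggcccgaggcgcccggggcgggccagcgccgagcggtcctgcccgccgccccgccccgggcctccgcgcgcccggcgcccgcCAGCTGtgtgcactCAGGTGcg
B3gnt8: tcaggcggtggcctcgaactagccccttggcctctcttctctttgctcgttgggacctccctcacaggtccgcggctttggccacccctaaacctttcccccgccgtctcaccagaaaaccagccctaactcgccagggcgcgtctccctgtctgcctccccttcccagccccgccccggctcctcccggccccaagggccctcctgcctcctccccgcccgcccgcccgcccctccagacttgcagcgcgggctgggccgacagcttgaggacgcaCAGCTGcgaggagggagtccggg
B4galt1: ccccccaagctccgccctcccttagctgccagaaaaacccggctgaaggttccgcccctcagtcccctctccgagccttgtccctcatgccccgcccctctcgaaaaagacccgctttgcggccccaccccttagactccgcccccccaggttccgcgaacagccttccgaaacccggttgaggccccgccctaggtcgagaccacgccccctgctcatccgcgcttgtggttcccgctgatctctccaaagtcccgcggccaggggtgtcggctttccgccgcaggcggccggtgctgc
C1galt1 held 3 CANNTG matches, Gcnt1 and B3gnt8 held 1 each in the windows shown (2 in each of the other Gcnt1 windows), and Galnt7 and B4galt1 held 0. Of 32851 RefSeq promoters of this length, 72.3% held at least 1 and 17.6% at least 3. The form CAGCTG, 1 of those matches, occurred in C1galt1 and B3gnt8, in 17 of 87 promoters of the 66 member genes found in the table, or 19.5%, and in 16.3% of all. The form CATATG, also a CANNTG, occurred in 1 member promoter, or 1.15%, against 3.91% of all. A match is a run of letters in the window and not a bound site.

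Core 2 branching enzymes showed wide gaps. Gcnt1, which makes core 2 on many glycoproteins and whose 3 promoter windows held 1, 2 and 2 CANNTG matches, had intensities of 20.6 in MIST1-null zymogenic and 19.8 in wild-type zymogenic cells, against 249 in MIST1-null neck and 213 in wild-type neck cells. Gcnt3, the mucin-type enzyme that makes core 2 and core 4, had 20.0 and 26.0 in MIST1-null and wild-type zymogenic cells, against 329 and 207 in the matching neck cells. Both genes were far above the detection level in both neck arrays and under it in both zymogenic arrays. The zymogenic minus neck difference of Gcnt1 was -3.60 in MIST1-null and -3.42 in wild-type mice, and that of Gcnt3 was -4.04 and -2.99. With values under the detection level raised to it, these stood for at least 5.71-fold and 4.86-fold lower Gcnt1 and at least 7.53-fold and 4.73-fold lower Gcnt3 in zymogenic cells. The other members of the family did not share this pattern. Gcnt4, also a core 2 enzyme, had 49.0 and 86.8 in MIST1-null and wild-type zymogenic cells, against 41.2 and 64.3 in neck cells. Gcnt7 reached the detection level on only 1 array, at 55.4 in MIST1-null zymogenic cells.

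Of 19 initiating GalNAc transferases, 11 were detectable in the MIST1-null pair and 12 in the wild-type pair. By 2-fold, 6 of the 11 and 5 of the 12 stood lower in zymogenic cells and none higher, where 4.80% and 6.78% of all detectable genes were lower and 4.90% and 6.27% higher. Of the lower ones, Galnt6 and Galntl6 passed the detection rule only through the neck array in both pairs, and Galnt12 did in the wild-type pair. The medians over the detectable genes were -1.11 and -0.45, but over all 19 genes, with no filter on low values, they were -0.097 and -0.082. Galnt7, which prefers peptides that already carry GalNAc, had 182 in MIST1-null zymogenic and 246 in wild-type zymogenic cells, against 872 in MIST1-null neck and 553 in wild-type neck cells. Its neck values were above both zymogenic values, with differences of -2.26 in MIST1-null and -1.17 in wild-type mice. Galnt4, another such follow-on enzyme, had 135 and 88.7 in MIST1-null and wild-type zymogenic cells, against 291 and 193 in neck cells, and differed by -1.11 and -1.12. The RefSeq span of Galnt4 overlaps that of Poc1b, and reads of that gene in its row were not tested. Galnt12 had 47.5 and 26.9 in MIST1-null and wild-type zymogenic cells, against 158 and 112 in neck cells, with differences of -1.74 and -2.06. Galnt6 had 17.0 and 15.5 in MIST1-null and wild-type zymogenic cells and only 65.8 and 57.6 in neck cells. Its differences of -1.95 and -1.89 were -0.59 and -0.40 when low values were raised to the detection level. Galnt3 was lower by 2-fold in the MIST1-null pair only, at -1.33 against -0.35 in the wild-type pair, with 157 in MIST1-null zymogenic and 294 in wild-type zymogenic cells, against 395 and 374 in MIST1-null and wild-type neck cells. Other detectable initiating enzymes differed less between cell types. Galnt1, a broadly expressed member, had 169 and 124 in MIST1-null and wild-type zymogenic cells, against 109 and 162 in neck cells, and Galnt2 kept between 42.0 and 56.6 on the 4 arrays.

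Galntl6 was bright in neck cells on 1 array row, but its 3 rows disagreed. The row with the highest mean read 7.14 and 6.50 in MIST1-null and wild-type zymogenic cells, against 240 and 180 in neck cells, giving -5.07 and -4.79. Both zymogenic values were far under the detection level, and raised to it they stood for at least 5.49-fold and 4.13-fold lower values in zymogenic cells. A second row read 23.8 and 25.2 in MIST1-null and wild-type zymogenic cells, against 24.6 and 30.8 in neck cells. The third read 23.2 and 33.6 in MIST1-null and wild-type zymogenic cells, against 20.3 and 22.4 in neck cells, so neither of them came near the detection level. With the mean of the 3 rows the differences were -1.64 in MIST1-null and -1.50 in wild-type mice. Galntl6 is a long gene whose RefSeq span overlaps the genes Gm15881 and BC030500, and which transcript the bright row measured was not tested.

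Core 1 synthesis showed a split between the enzyme and its chaperone. C1galt1 had 224 in MIST1-null zymogenic and 306 in wild-type zymogenic cells, against 597 in MIST1-null neck and 606 in wild-type neck cells. The zymogenic values were lower in both genotypes, by -1.42 in MIST1-null and by -0.99 in wild-type mice, the second just short of 2-fold. C1galt1c1, which folds C1galt1, had 512 and 486 in MIST1-null and wild-type zymogenic cells, against 440 and 478 in neck cells, with differences of 0.22 and 0.02.

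**Figure D2:**
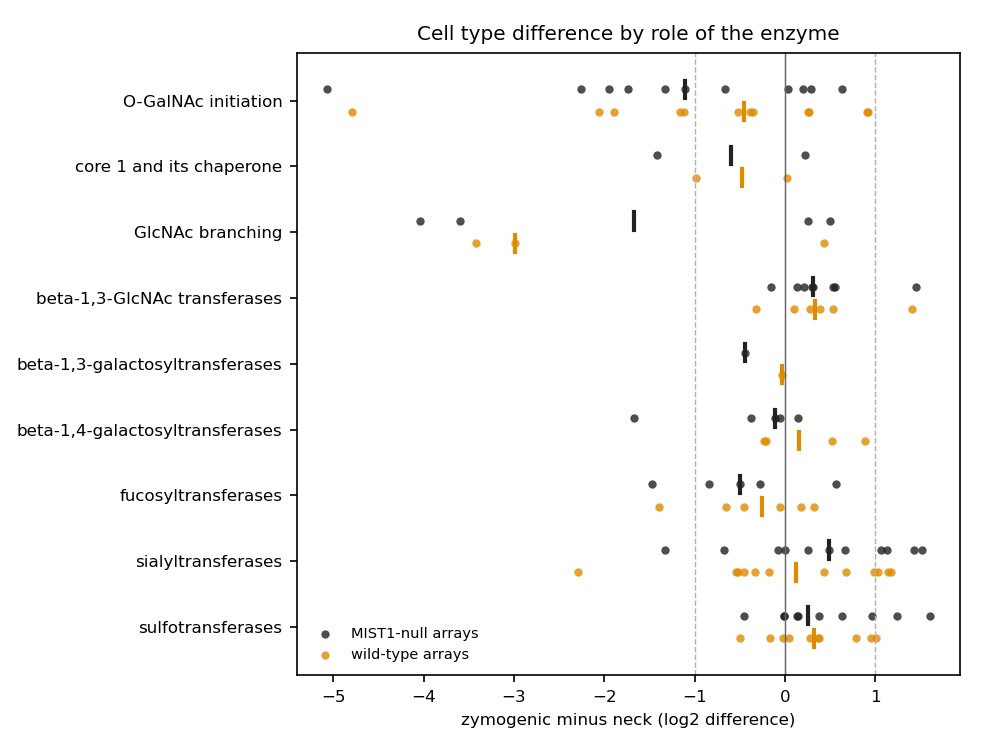
Zymogenic minus neck difference (log2) of each detectable member gene, by enzyme role; black points are the MIST1-null pair of arrays, orange points the wild-type pair, bars are medians and dashed lines mark 2-fold. The detectable initiating enzymes have medians of -1.11 and -0.45 in the MIST1-null and wild-type pairs (-0.097 and -0.082 over all 19), and the point farthest left in each pair is the Galntl6 row whose zymogenic values lie under the detection level. The detectable beta-1,3-GlcNAc transferases have medians of 0.31 and 0.33 (0.17 and 0.33 with low values raised to the detection level).

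Among enzymes that extend the chains, 8 beta-1,3-GlcNAc transferases and 5 B4galt genes were detectable in the MIST1-null pair, and 6 and 4 in the wild-type pair. B3gnt8 alone was 2-fold higher in zymogenic cells, in both pairs, where 4.90% and 6.27% of all detectable genes were. B4galt1 alone was lower, in the MIST1-null pair, where 4.80% of all were. So few genes cannot be set apart from these shares. Of the beta-1,3-GlcNAc transferases, 7 of 8 detectable genes were above 0 in the MIST1-null pair and 5 of 6 in the wild-type pair. Their medians were 0.31 and 0.33, beside 0.05 and 0.02 over all genes. In the MIST1-null pair B3gnt6, B3gnt8 and B3gnt9 passed the detection rule only through the zymogenic array, so they had to lie above 0. Raised to the detection level, B3gnt6 and B3gnt9 differed by 0.11 and 0.12, and the MIST1-null median became 0.17. B3gnt8, an extension enzyme of branched N-glycans, had 108 in MIST1-null zymogenic and 121 in wild-type zymogenic cells, against 39.8 in MIST1-null neck and 45.3 in wild-type neck cells. Both zymogenic values were above both neck values, and the differences were 1.45 and 1.41. B3gnt2, the main polylactosamine extender, had 478 and 278 in MIST1-null and wild-type zymogenic cells, against 413 and 348 in neck cells. B3gnt3, which extends core 1, kept between 74.2 and 82.6 on all 4 arrays. B3gnt6, the core 3 enzyme, reached the detection level only in MIST1-null zymogenic cells, at 47.1.

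B4galt1, a broadly acting galactosyltransferase, was low on 1 array. It had 68.1 in MIST1-null zymogenic and 150 in wild-type zymogenic cells, against 216 in MIST1-null neck and 176 in wild-type neck cells. Its cell type difference was -1.67 in MIST1-null mice and -0.23 in wild-type mice. B4galt3 had 111 and 121 in MIST1-null and wild-type zymogenic cells, against 120 and 65.3 in neck cells, so that here the wild-type neck array stood lowest. B4galt5, B4galt6 and B4galt7, the last of which builds the proteoglycan linker, differed by less than 2-fold in both genotypes.

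Among 7 fucosyltransferase genes, 5 were detectable in the MIST1-null pair and 6 in the wild-type pair. None was 2-fold higher in zymogenic cells, where 4.90% and 6.27% of all detectable genes were, and 1 was lower in each pair. So few genes cannot set that absence apart from these shares. Fut9, which makes the Lewis x fucose linkage, had 103 in MIST1-null zymogenic and 81.7 in wild-type zymogenic cells, against 186 in MIST1-null neck and 215 in wild-type neck cells. Both neck values exceeded both zymogenic values, with differences of -0.84 and -1.40. Fut2, the secretor enzyme of gut epithelium, had 139 and 108 in MIST1-null and wild-type zymogenic cells, against 169 and 170 in neck cells, and differed by -0.28 and -0.66. Fut8, which fucosylates the N-glycan core, differed by -0.50 and -0.45. Fut4, a relative of Fut9, had 64.3 and 89.0 in MIST1-null and wild-type zymogenic cells, against 178 and 92.6 in neck cells, so 1 array, MIST1-null neck, stood high.

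Sialyltransferases and sulfotransferases held most of the genes that were 2-fold higher in zymogenic cells. Of 20 sialyltransferase genes, 11 were detectable in the MIST1-null pair and 12 in the wild-type pair, with 4 and 3 at least 2-fold higher, 1 lower in each, where 4.90% and 6.27% of all detectable genes were higher. Of the higher ones, all but St3gal6 passed the detection rule only through the zymogenic array, so they had to be higher. The lower ones, St6galnac1 in MIST1-null and St6gal1 in wild-type mice, passed it only through the neck array. The medians were 0.48 and 0.12, and the wild-type one changed sign with quantile normalization (-0.28), centring (-0.30), the 75th percentile filter (-0.18) and values raised to the detection level (-0.020). St3gal6, which adds sialic acid to lactosamine ends, had 725 in MIST1-null zymogenic and 799 in wild-type zymogenic cells, against 331 in MIST1-null neck and 405 in wild-type neck cells. The zymogenic values were higher in both genotypes, by 1.13 and 0.98, and its RefSeq span overlaps that of Dcbld2. St8sia3, an enzyme of sialic acid chains best known from brain, had 65.3 and 47.8 in MIST1-null and wild-type zymogenic cells, against 22.8 and 21.7 in neck cells. Its differences of 1.52 and 1.14 were 0.58 and 0.13 with low values raised to the detection level. St6gal2 and St8sia2 were higher by 2-fold only in the wild-type pair. St6gal2, a relative of St6gal1, had 44.9 and 63.1 in MIST1-null and wild-type zymogenic cells, against 44.9 and 28.0 in neck cells. St8sia2, a polysialic acid enzyme, had 31.1 and 44.6 in MIST1-null and wild-type zymogenic cells, against 31.8 and 21.8 in neck cells. With low values raised to the detection level, the wild-type differences of St6gal2 and St8sia2 were 0.53 and 0.03. St6galnac1, which caps the first GalNAc, had 19.6 and 32.4 in MIST1-null and wild-type zymogenic cells, against 49.1 and 25.4 in neck cells, and passed the detection level on that 1 neck array only. St6galnac2, with values of 107 to 157, and St3gal2, with values of 76.5 to 97.3, were detectable on all arrays and differed by less than 2-fold in both genotypes.

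Of 14 sulfotransferase genes, 10 were detectable in each pair. By 2-fold, 2 were higher in MIST1-null and 1 in wild-type zymogenic cells, where 4.90% and 6.27% of all detectable genes were. In the MIST1-null pair Chst1 and Chst11 passed the detection rule only through the zymogenic array, so they had to be higher. Raised to the detection level, their differences there were 0.98 and 0.35. No sulfotransferase was 2-fold lower, where 4.80% and 6.78% of all were, and so few genes cannot set that absence apart from these shares. Chst1, which sulfates galactose, had 86.0 in MIST1-null zymogenic and 108 in wild-type zymogenic cells, against 36.3 in MIST1-null neck and 53.8 in wild-type neck cells. Its differences were 1.24 and 1.00, the second at the 2-fold line and 0.97 with each array centred on its median. Chst12, a chondroitin sulfotransferase, had 226 in MIST1-null zymogenic and 371 in wild-type zymogenic cells, against 205 and 192 in MIST1-null and wild-type neck cells, so that the wild-type zymogenic array stood highest. Chst8, which sulfates GalNAc, had 163 and 198 in MIST1-null and wild-type zymogenic cells, against 164 and 163 in neck cells. Beside the genes higher in zymogenic cells stand the endocrine, fibroblast and smooth muscle, surface mucous and immune marker sums given above, which were also higher there. All 4 surface mucous markers were above 0 in both pairs, with medians of 0.81 in MIST1-null and 0.54 in wild-type mice, and 0 of them passed 2-fold. Of the 6 endocrine markers, 5 were 2-fold higher in the MIST1-null and 4 in the wild-type zymogenic cells. Of the 7 detectable fibroblast and smooth muscle markers, 5 were in each, and no detectable marker of either list was 2-fold lower. The part of all these markers in the values of B3gnt8, St8sia3, St3gal6 and Chst1 was not tested.

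**Figure D3:**
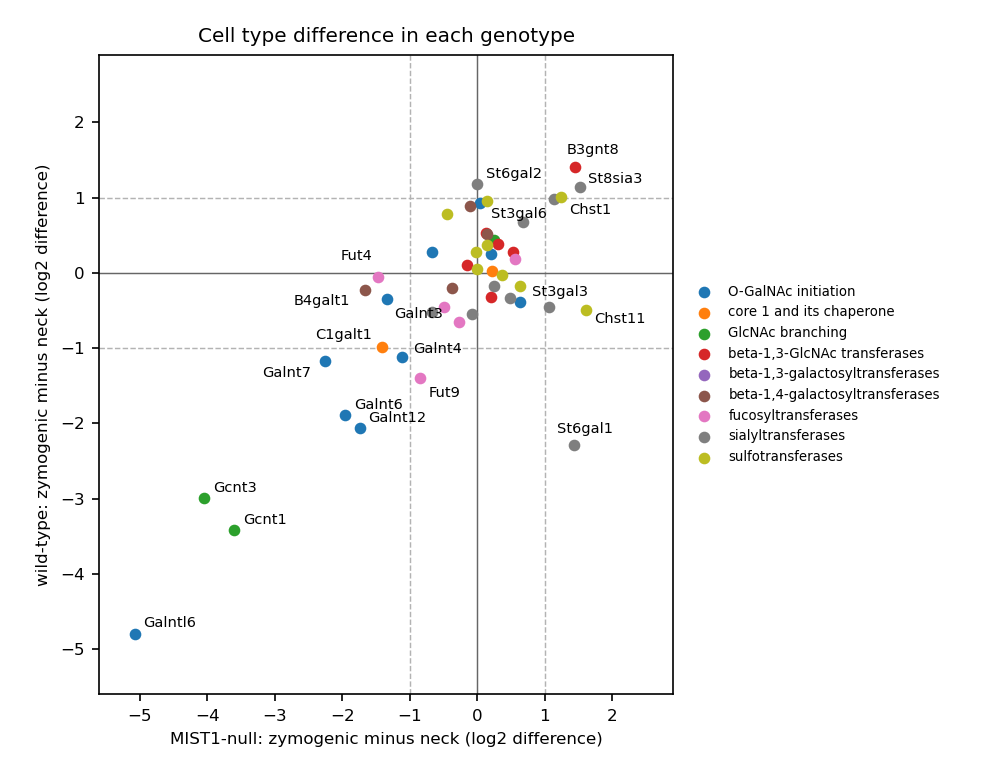
Zymogenic minus neck difference (log2) in MIST1-null mice (x axis) against that in wild-type mice (y axis) for the 49 member genes detectable in both comparisons, coloured by enzyme role, with dashed lines at 2-fold; genes past 2-fold in either are named. Galntl6, Gcnt1 and Gcnt3 lie far down the lower left, and St6gal1 alone sits 2-fold or more higher in MIST1-null and 2-fold or more lower in wild-type mice.

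The cell type differences of the 2 genotypes rest on separate arrays. Over the 49 members detectable in both, their Pearson correlation was 0.76, against 0.49 over 10165 genes. The same sign in both genotypes was seen for 33 of the 49 members and for 6160 of the 10165 genes. Genes are not independent replicates, and without Galntl6, Gcnt1 and Gcnt3 the correlation was 0.48 over 46 genes. Higher by 2-fold in both genotypes were 3 of 49 members, B3gnt8, Chst1 and St8sia3, or 6.12%, against 1.85% of all genes. In MIST1-null mice all 3 passed the detection rule only through the zymogenic array, as did St8sia3 in wild-type mice. There they had to be higher. This set was less firm than the lower one. With a pseudocount of 32, 0 of them remained, and with low values raised to the detection level only B3gnt8 did. Over 8 parietal markers the median zymogenic minus neck difference was also below 0, at -0.37 in MIST1-null and -1.30 in wild-type mice. The part of these markers in the cell type differences was not tested. The marker list of neck cells differed by a median of -3.94 in MIST1-null and -2.94 in wild-type mice. Of its 6 markers 5 were 2-fold lower in each pair, and Aqp5 ran the other way, at 0.56 and 0.54. The neck marker sums were 689 in MIST1-null zymogenic and 1840 in wild-type zymogenic cells, against 11800 and 9620 in MIST1-null and wild-type neck cells. Tff2 read 277 and 1320 in MIST1-null and wild-type zymogenic cells. The part of this gap in the cell type differences was not tested.

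Of the genes that supply and carry the sugar donors, 17 of 22 detectable ones lay below 0 in the MIST1-null pair and 13 of 22 in the wild-type pair. By 2-fold, 6 were lower and 1 was higher in MIST1-null zymogenic than MIST1-null neck cells, where 4.80% and 4.90% of all detectable genes were, and 5 were lower and 0 higher in the wild-type pair, where 6.78% and 6.27% were. The medians were -0.52 and -0.33, beside 0.05 and 0.02 over all genes. The 2-fold lower genes included the first and last enzymes of the route to UDP-GlcNAc and its Golgi carrier. Gfpt1, its entry enzyme, had 314 in MIST1-null zymogenic and 285 in wild-type zymogenic cells, against 1070 in MIST1-null neck and 825 in wild-type neck cells. Uap1, its last enzyme, had 200 and 164 in MIST1-null and wild-type zymogenic cells, against 665 and 407 in neck cells. Slc35a3, which carries UDP-GlcNAc into the Golgi, had 291 and 143 in MIST1-null and wild-type zymogenic cells, against 916 and 545 in neck cells. For all 3 genes both neck values were above both zymogenic values, with differences from -1.31 to -1.93. The middle enzymes differed less, Gnpnat1 by -0.39 and -0.05 and Pgm3 by -0.80 and 0.36 in MIST1-null and wild-type mice. Gmds, which starts GDP-fucose synthesis, had 98.5 and 134 in MIST1-null and wild-type zymogenic cells, against 378 and 248 in neck cells. Papss2, which makes the sulfate donor, had 59.1 and 43.1 in MIST1-null and wild-type zymogenic cells, against 125 and 105 in neck cells. Other genes of the list lay the other way. Nans, a sialic acid synthase, had 88.2 and 135 in MIST1-null and wild-type zymogenic cells, against 61.2 and 70.1 in neck cells, under 2-fold in both pairs. The other sialic acid supply genes were mixed. In MIST1-null and wild-type mice Nanp differed by -0.69 and -1.16 and Slc35a1 by -0.53 and -0.74. Cmas differed by 0.20 and 0.70 and Gne by -0.94 and 0.08. Slc35b1, an endoplasmic reticulum nucleotide carrier, had 396 and 259 in MIST1-null and wild-type zymogenic cells, against 165 and 167 in neck cells.

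**Figure D4:**
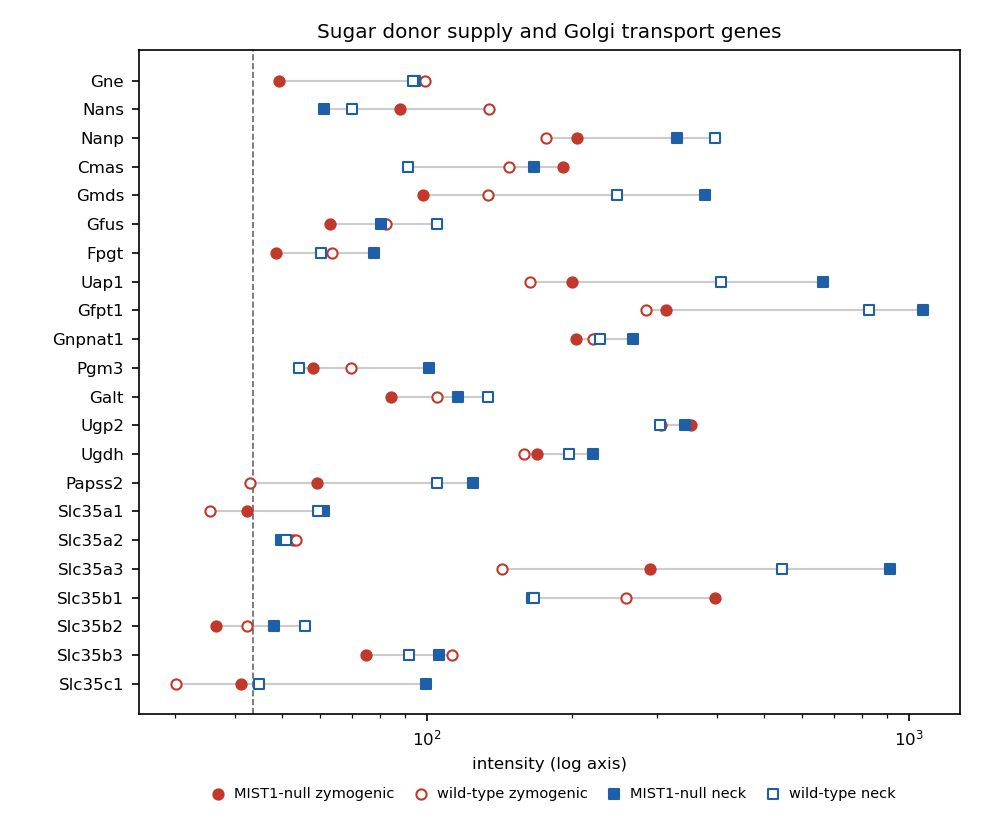
Intensity on each array (log axis) of the 22 sugar donor supply and transport genes that reached the detection level of 43.68 (dashed line) on at least 1 array; filled symbols are MIST1-null, open symbols wild-type, circles zymogenic and squares neck cells. For Gfpt1, Uap1, Slc35a3 and Gmds both neck squares lie to the right of both zymogenic circles, and for Slc35b1 to the left.

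Further lists held the gland mucin cap and N-glycan branching genes. A4gnt, which caps gland mucin with GlcNAc, had 35.6 and 63.6 in MIST1-null and wild-type zymogenic cells, against 536 and 378 in neck cells, and was the only gene of its list lower by 2-fold in zymogenic cells, of 8 and 9 detectable. Of 9 detectable N-glycan branching genes, 2 were lower by 2-fold in each pair and 1, Man2a2, was higher in the wild-type pair, beside the same shares of all genes as above. Mgat4a, which adds an N-glycan branch, was lower in both, with 45.9 and 28.7 in MIST1-null and wild-type zymogenic cells, against 206 and 103 in neck cells.

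Loss of MIST1 was accompanied by fewer and smaller differences among these genes, at shares near those of all genes in zymogenic cells. In zymogenic cells 7 of 58 detectable members passed 2-fold either way, or 12.1% against 10.4% of all genes, and in neck cells 5 of 53, or 9.43% against 4.29%. In zymogenic cells 3 of 58 detectable members, or 5.17%, were at least 2-fold higher in MIST1-null mice, against 5.15% of all detectable genes, and 4, or 6.90%, were lower, against 5.23%. In neck cells 2 of 53, or 3.77%, were higher, against 1.89%, and 3, or 5.66%, were lower, against 2.40%. The median differences were -0.13 over members and 0.04 over all genes in zymogenic cells and 0.01 and 0.00 in neck cells. Each zymogenic array enters a genotype and a cell type difference, so the values below share arrays with those above.

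The 7 enzymes lower by 2-fold in zymogenic cells of both genotypes, and C1galt1, did not pass 2-fold by genotype in neck cells. Neck cell differences were 0.67 for Gcnt3, 0.66 for Galnt7, 0.59 for Galnt4, 0.50 for Galnt12, 0.41 for Galntl6, 0.23 for Gcnt1, 0.19 for Galnt6 and -0.02 for C1galt1. In zymogenic cells Gcnt1, Gcnt3, Galntl6 and Galnt6 were under the detection level in both genotypes, so a genotype difference could not be read.

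St6gal1, which adds sialic acid to N-glycans, had the highest genotype difference and ran in opposite directions in the 2 cell types. Its intensities were 84.9 in MIST1-null zymogenic and 15.0 in wild-type zymogenic cells, and 31.6 in MIST1-null neck and 73.5 in wild-type neck cells. It was 2-fold or more higher without MIST1 in zymogenic cells, by 2.50, and lower in neck cells, by -1.22, and it was the only member of 47 to do so, or 2.13%, against 0.152% of all genes. The opposite pattern, lower in zymogenic and higher in neck cells, was seen in 0 members and 0.112% of all genes. A single gene cannot set the members apart from these shares. Both low St6gal1 values lay under the detection level, so the detection rule fixed both directions. With them raised to that level the differences were 0.96 and -0.75, under 2-fold each. The parietal marker sum was also lowest in wild-type zymogenic cells, at 4700, but highest in MIST1-null neck cells, at 10100. The immune marker sum was lowest in MIST1-null neck cells, at 168, but highest in wild-type zymogenic cells, at 416. The part of these markers in the St6gal1 pattern was not tested. St3gal3 was high on 1 array, with 73.9 in MIST1-null zymogenic and 33.0 in wild-type zymogenic cells, and 35.4 in MIST1-null neck and 45.1 in wild-type neck cells.

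A single member was lower by 2-fold and a single member higher by 2-fold in both cell types of MIST1-null mice, each 2.13% of the 47 members detectable in both, against 0.375% and 0.274% of all genes. A single gene cannot set the members apart from these shares. Each of them, B3galt4 and Galnt18, passed the detection rule only through the arrays of 1 genotype, so that rule fixed its direction. B3galt4, which builds gangliosides, had 30.3 in MIST1-null zymogenic and 89.4 in wild-type zymogenic cells, and 42.2 in MIST1-null neck and 91.6 in wild-type neck cells. Both MIST1-null values were under the detection level, and MIST1-null minus wild-type came to -1.56 in zymogenic cells and -1.12 in neck cells. Raised to the detection level they stood for at least 2.05-fold and 2.10-fold lower values. Galnt18 had 58.9 in MIST1-null zymogenic and 24.9 in wild-type zymogenic cells, and 48.2 in MIST1-null neck and 14.3 in wild-type neck cells, with differences of 1.24 and 1.76. All 4 of its values were dim, and raised to the detection level the differences were 0.43 and 0.14.

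**Figure D5:**
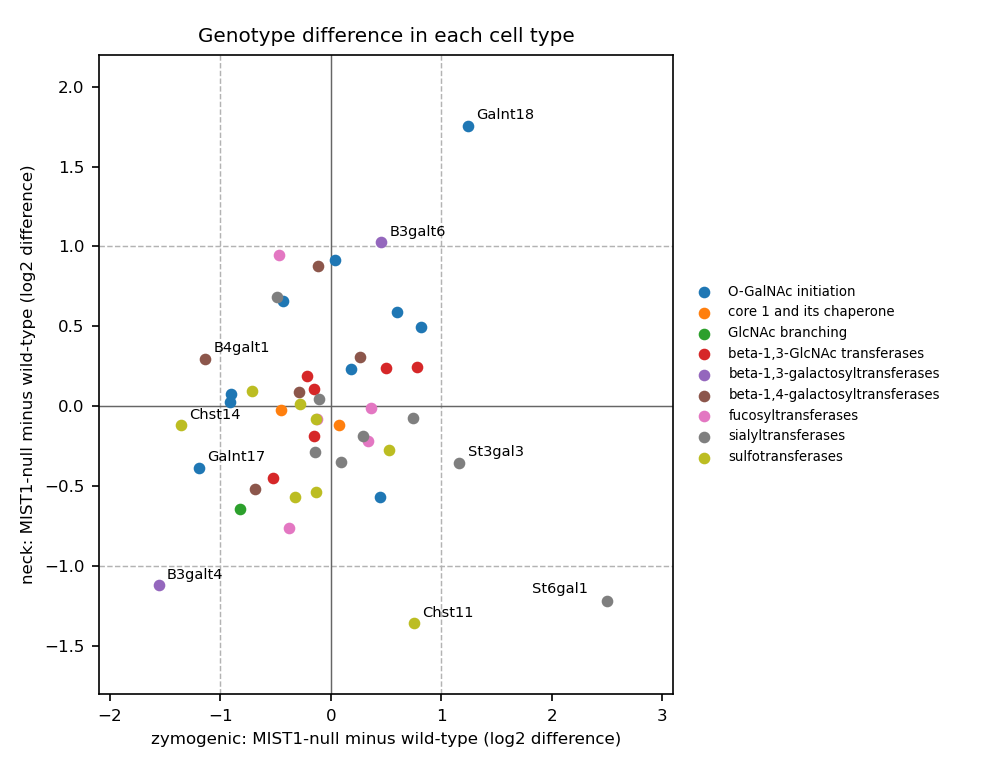
MIST1-null minus wild-type difference (log2) in zymogenic cells (x axis) against that in neck cells (y axis) for the 47 member genes detectable in both comparisons, coloured by enzyme role, with dashed lines at 2-fold; genes past 2-fold in either are named. St6gal1 lies at the lower right, at 2.50 and -1.22, and most other members lie within 2-fold in both cell types.

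Apart from St3gal3, the other genotype differences in zymogenic cells were lower values in MIST1-null mice. B4galt1, whose promoter window held 0 CANNTG matches, differed by -1.14 in zymogenic and 0.30 in neck cells. Chst14, a dermatan sulfotransferase, had 44.6 in MIST1-null zymogenic and 114 in wild-type zymogenic cells, and 61.1 in MIST1-null neck and 66.3 in wild-type neck cells, so the wild-type zymogenic array stood apart. Galnt17 showed the same form, with 41.7 in MIST1-null zymogenic and 95.6 in wild-type zymogenic cells, and 39.0 in MIST1-null neck and 50.8 in wild-type neck cells. The remaining differences past 2-fold lay in neck cells. B3galt6, a proteoglycan linker enzyme, had 44.4 in MIST1-null zymogenic and 32.3 in wild-type zymogenic cells, and 60.4 in MIST1-null neck and 29.6 in wild-type neck cells, a neck difference of 1.03. Chst11, a chondroitin sulfotransferase, had 55.5 in MIST1-null zymogenic and 33.0 in wild-type zymogenic cells, and 18.2 in MIST1-null neck and 46.6 in wild-type neck cells, a neck difference of -1.35. In neck cells the endocrine, fibroblast and immune marker sums were also lower in MIST1-null mice, and their part in the value of Chst11 was not tested. Over the 47 members the zymogenic and neck genotype differences, which share no array, had a Pearson correlation of 0.06, against 0.17 over 9857 genes.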

How the data were processed

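RNA from laser-captured zymogenic and mucous neck cells was pooled over dissections and mice to about 100 ng, amplified, labelled with biotin and hybridised, 1 array per group, per the labels' protocols. The deposited values are probe set intensities on a linear scale, from 0.86 to 14251, which the authors compared in dChip, as their design text records. Background correction, probe summary and scaling were steps not given in the sources used here. Groups were taken from the sample titles.

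Of 35512 rows, 21789 had 1 gene in the platform annotation, 1621 had several (1 of them with a member's symbol) and 12102 were not listed. All 91 member rows matched RefSeq (GRCm38.p6) by Entrez identifier with 0 changed symbols. A gene with several rows was represented by the row with the highest mean. Log2 was taken after a floor at an intensity of 1, with Python 3.11.15, numpy 2.4.6 and pandas 2.3.3. Background shares are over all genes that pass the same detection rule. With 1 array per group no test was run. The counting was tested on simulated data, with differences far past 2-fold added to bright genes and no detection rule. That check does not cover calls near 2-fold in dim genes.

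Member genes are given with all 4 values where they were detectable and 2-fold different in at least 1 comparison, where they were the highest of their role group, or where they were among the 10 highest of all; other members were picked as examples after their values were seen. The members, role groups and lists were chosen with earlier results of these data known. Alternatives were a pseudocount of 32, quantile normalization, centring on array medians, no filter, a filter at the 75th percentile (80.9), the mean of a gene's rows and, added after seeing the data, low values raised to the detection level.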

Additional observations from a re-analysis of the deposited data

Results flagged for a closer look

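St6gal1 was singled out because its genotype difference ran in opposite directions in the 2 cell types. The MIST1-null minus wild-type difference was 2.50 in zymogenic and -1.22 in neck cells, so the first exceeded the second by 3.71 on the log2 scale. With 1 array per group this difference between cell types was not tested, and each direction rests on 1 value under the detection level.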

How the results depend on the processing

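No paired analysis was possible because each group had 1 array and no numbered replicates. Of 45 member differences past 2-fold, 0 reversed under any of the 7 alternatives, but most of these could not reverse one. The pseudocount, raised values and either change of filter keep the sign of a difference. Centring shifts a whole comparison by far less than 2-fold, and the mean of rows changed only Galntl6 among these genes. Under 2-fold or undetected were 27 of the 45 with the pseudocount of 32, 19 with low values raised to the detection level, 16 with the 75th percentile filter, 3 with centring and 2 with quantile normalization. With no filter, which could drop none, it was 0, and with the mean of a gene's rows also 0. For MIST1-null zymogenic minus neck, where 19 member genes passed 2-fold, 10 did with the pseudocount and 12 with values raised. The split of 7 higher and 12 lower became 1 and 9 with the pseudocount and 2 and 10 with values raised. The median of 0.13 became -0.065 with centring, which moved the median of all genes by -0.10, then -0.15 with the 75th percentile filter and 0.026 with values raised. For wild-type zymogenic minus neck, 14 became 7 with the pseudocount, 9 with the 75th percentile filter and 9 with values raised, and the split of 5 higher and 9 lower became 3 and 10 with centring. That split became 0 and 7 with the pseudocount and 2 and 7 with values raised. The median of 0.00 became 0.10 with no filter and -0.21 with the 75th percentile filter. For the genotype difference in zymogenic cells, 7 became 1 with the pseudocount and 4 with values raised. For that in neck cells, 5 became 0 with the pseudocount, 1 with the 75th percentile filter and 1 with values raised. These 3 settings shrink or remove dim values by construction. Of the 7 genes lower by 2-fold in zymogenic cells of both genotypes, 5 remained with the pseudocount (Galnt7, Galnt12, Galntl6, Gcnt1 and Gcnt3), and with values raised Galnt4 remained too. With centring C1galt1 joined them. Of the 3 genes higher in both genotypes, 0 remained with the pseudocount and B3gnt8 alone with values raised. Chst1 dropped out with centring and St8sia3 with the 75th percentile filter. The files used here give no measure of signal against background, so dim values have no known error.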
